A study of Mus musculus with 11 samples.

Results

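The difference of response between the amino-terminal fragments nApoE4 and nApoE3 was examined in BV2 cells, a transformed mouse microglial line, by RNA sequencing. For each gene it was the log2 change from ControlA to ApoE4 minus the log2 change from ControlB to ApoE3, fitted over all 11 samples with a mean for each of the 4 groups. All 36529 genes of the count files were members, and 15287 of them had enough counts to be tested. ControlA (n = 3) and ControlB (n = 3) were untreated BV2 cells, ApoE4 (n = 3) were BV2 cells given nApoE4 and ApoE3 (n = 2) were BV2 cells given nApoE3. Both fragments were recombinant proteins with a His tag, held residues 1 to 151, were given at 25 μg/ml for 5 h, and differ in the amino acid, arginine in nApoE4 and cysteine in nApoE3, that tells these human isoforms apart. ControlA is labelled as the control for ApoE4, so ControlA and ApoE4 made up the nApoE4 experiment, and ControlB and ApoE3 made up the nApoE3 experiment. The cells are labelled C57BL/6. The labels speak of a PBS vehicle and the study's methods of conditioned medium for the untreated cells, so what these received is not known. The study speaks of independent trials and measurements, but neither it nor the labels say that each library came from a separate culture, so the p-values measure only the spread between these samples, which may be technical.

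Apolipoprotein E carries cholesterol and other lipids between cells of the brain, and microglia, the resident macrophages of the brain, take it up through lipoprotein receptors. Macrophages that meet a bacterial or viral product switch on NF-kB, which drives cytokines and chemokines, and the interferon regulatory factors, which drive antiviral genes. Changes in oxygen, nutrients and protein folding act through further factors, among them HIF for glycolysis, ATF4 for amino acid supply and SREBP for sterol synthesis.

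Because each fragment had controls of its own, the difference of response is made of 2 gaps. The treated gap is ApoE4 minus ApoE3, and the untreated gap is ControlA minus ControlB. The difference of response equals the treated gap minus the untreated gap, and the share in the controls is the part of it, in percent, that ControlB minus ControlA supplied. A share near 0% means that both untreated groups stood at the same level. A share near 100% means that both treated groups stood at the same level and only the starting levels differed. A share under 0% means that the untreated gap ran the same way as the difference and the treated gap exceeded both, and a share over 100% means that the treated gap ran the opposite way to the difference. In the treated gap, fragment and experiment cannot be told apart. The untreated gap holds no fragment, and in it experiment and control group cannot be told apart. A gene counted as called had an adjusted p under 0.05 in edgeR's quasi-likelihood test.

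Libraries held 39732710 to 44162511 counts on genes in the nApoE4 experiment and 55809688 to 69768666 in the nApoE3 experiment. Replicates correlated at 0.992 to 0.996 on log values, and ControlA replicate 2 stood farthest from its group. The untreated groups differed in 10614 of 15287 genes (69.4%) and the treated groups in 10478 (68.5%). Of 14 microglia or macrophage markers, 10 reached 1 CPM in some group, where CPM are counts scaled to a common library size, with Csf1r at 677 to 814 CPM in all samples, while P2ry12 was at 0 in every sample and Sall1 did not exceed 0.0355 CPM. The summed markers were at 3590 to 3980 CPM in ControlA, 3830 to 3930 with nApoE4, 2530 to 2640 in ControlB and 3010 to 3030 with nApoE3. The mean of Tyrobp was 625 CPM in ControlA and 247 in ControlB and that of Itgam 178 and 80.8, while Spi1 was at 268 in ControlA, 678 with nApoE4, 214 in ControlB and 433 with nApoE3. Markers of neurons, fibroblasts, T cells and B cells summed to less than 1 CPM in every library. Of the 4 endothelial markers Kdr, a growth factor receptor, stood out at 40.9 to 176 CPM, and its own log2 difference of response was −0.79 (adjusted p = 0.00013). Astrocyte markers summed to 1.05 to 1.39 CPM in untreated and 4.37 to 7.03 in treated samples. Nearly all of this was Slc1a2, with means of 1 in ControlA, 6.43 with nApoE4, 1.06 in ControlB and 4.37 with nApoE3. Gfap and Aqp4 were under 0.1, and the mean of Aldh1l1 was lower in treated than in untreated cells of both experiments. Oligodendrocyte markers, mostly Mbp, summed to 9.33 to 14.3 in the nApoE4 and 22.2 to 25.5 in the nApoE3 experiment, with Mog at 0. What such markers contribute to the differences below was not tested.

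The responses differed in 4331 of 15287 genes (28.3%), of which 2208 (14.4%) were higher and 2123 (13.9%) lower with nApoE4. Higher here means that the change with nApoE4 was more upward, or less downward, than the change with nApoE3. The median size of the difference was 0.52 on the log2 scale over the called genes and 0.27 over all genes tested. A difference beyond 1.5-fold passed its own test in 286 genes higher (1.87%) and 375 genes lower (2.45%). In bulk RNA, fewer cells of a type and less RNA per cell cannot be told apart, and this holds for all that follows.

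The controls held over 50% of the difference in 1814 of the 4331 called genes (41.9%). The share was under 0% in 1673 genes (38.6%), from 0 to 50% in 844 (19.5%), from 50 to 100% in 709 (16.4%) and over 100% in 1105 (25.5%). Genes lower with nApoE4 had a share over 50% in 955 of 2123 cases (45.0%) and genes higher in 859 of 2208 (38.9%). Over all genes tested, the share in the controls was 46.8% when each gene was weighted by the square of its difference. With equal spread in all samples, 44.4% of the error variance of the difference would lie in the controls. For 977 called genes only the treated gap passed its own test and for 891 only the untreated gap. Both gaps passed in 1907 genes with the same sign and in 544 with opposite signs, and neither passed in 12. These counts share samples with the difference itself and are given as a description.

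**Figure D1:**
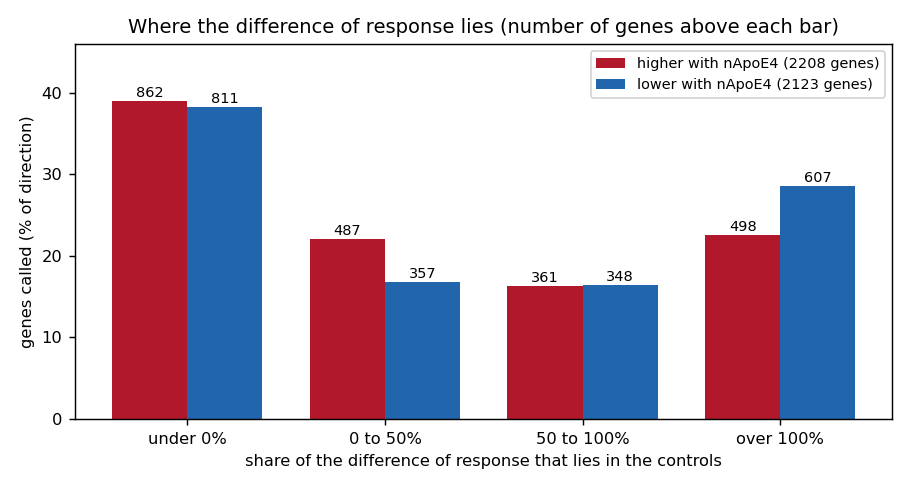
Called genes (y axis, percent of the genes of that direction) by the share of their difference of response that lies in the controls (x axis), with the number of genes above each bar. Shares under 0% made up the tallest pair of bars, with 862 genes higher and 811 lower with nApoE4, and genes lower with nApoE4 were more often over 100% (607) than genes higher (498).

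**Figure D2:**
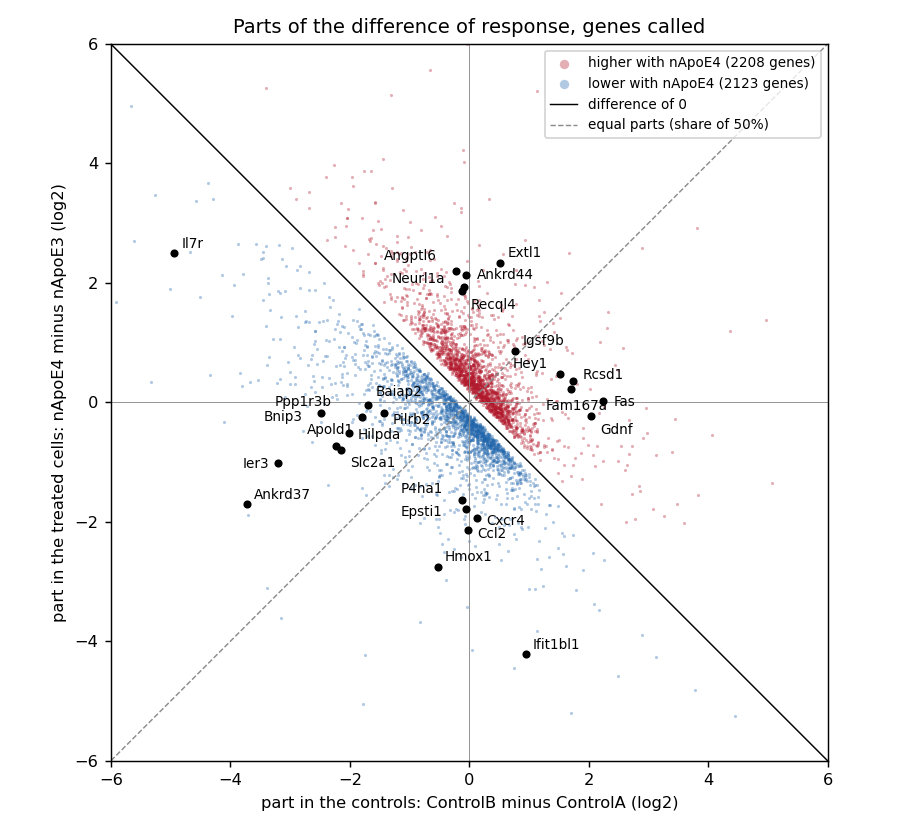
Each small point is a called gene, placed by ControlB minus ControlA (x axis, log2) and nApoE4 minus nApoE3 in treated cells (y axis, log2), and 2 of the 4331 genes lie outside the limits of 6. Genes near the vertical line, such as Ccl2 and Ankrd44, had like levels in both controls, and genes near the horizontal line, such as Fas and Bnip3, had like levels in both treated groups.

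The response to nApoE4 passed the test in 60.4% of all genes tested (30.0% up and 30.3% down) and the response to nApoE3 in 54.5% (27.0% up and 27.4% down). Seen by the direction of each response, both fragments raised 962 of the called genes and both lowered 911. A response to nApoE4 alone passed the test in 1129 called genes and a response to nApoE3 alone in 836. The responses passed in opposite directions in 443 genes, with 206 raised by nApoE4 and lowered by nApoE3 and 237 the other way round. In 50 called genes neither response passed by itself.

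The first group of genes had untreated levels within 0.25 of each other on the log2 scale, so the controls supplied no more than that to any difference. For a small difference this can still be a large part. With low genes left out (3 counts or fewer in any sample, or under 10 CPM in all 4 group means), 1204 called genes were of this kind, 652 higher and 552 lower with nApoE4. The 4 with the largest difference in each direction are described. Ccl2 was at 13.7, 18.2 and 12.6 CPM in ControlA, 81.4, 81.4 and 86.5 with nApoE4, 14.8, 13.8 and 15.4 in ControlB and 373 and 362 with nApoE3. The 6 untreated samples of this gene, a chemoattractant for monocytes, overlapped, and both nApoE3 samples were above all 3 nApoE4 samples. Its log2 difference of response was −2.16 ± 0.15 (SE, adjusted p = 3.7e-07), with 2.48 for the response to nApoE4 and 4.65 for that to nApoE3, and the share in the controls was 0.869%.

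Epsti1 was at 7.33, 8.07 and 7.05 CPM in ControlA, 13.7, 15.2 and 13.9 with nApoE4, 6.53, 7.09 and 8.06 in ControlB and 49.96 and 48.6 with nApoE3. Epsti1, an interferon-inducible gene of macrophages, rose with both fragments and further with nApoE3, with a difference of −1.84 ± 0.12 (SE, adjusted p = 2.3e-07) and a share in the controls of 2.94%. Cxcr4 was at 22.5, 23.6 and 24.5 CPM in ControlA, 1.35, 1.40 and 1.92 with nApoE4, 25.9, 24.2 and 27.5 in ControlB and 6.24 and 5.58 with nApoE3. This receptor for the chemokine Cxcl12 fell with both fragments and lowest with nApoE4, with no overlap between treated groups, a difference of −1.79 ± 0.15 (SE, adjusted p = 2.1e-06) and a share of −7.59%. P4ha1 was at 88.2, 98.6 and 92.8 CPM in ControlA, 48.2, 45.6 and 47.8 with nApoE4, 82.96, 83.3 and 90.2 in ControlB and 154 and 139 with nApoE3. P4ha1, a prolyl hydroxylase for collagen and a known HIF target, fell with nApoE4 (−0.98) and rose with nApoE3 (0.78), and its difference was −1.76 ± 0.08 (SE, adjusted p = 2.4e-08) with 7.14% in the controls.

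In the other direction, Ankrd44 was at 35.3, 32.8 and 38.4 CPM in ControlA, 72.3, 72.6 and 70.7 with nApoE4, 35.4, 35.1 and 32.1 in ControlB and 16.1 and 16.9 with nApoE3. Ankrd44, an ankyrin repeat subunit of protein phosphatase 6, went up with nApoE4 and down with nApoE3 from overlapping untreated levels, and its log2 difference of response was 2.07 ± 0.09 (SE, adjusted p = 1.5e-08) with a share of −2.56%. Angptl6 was at 5.64, 5.62 and 4.71 CPM in ControlA, 13.01, 13.2 and 14.9 with nApoE4, 4.93, 4.46 and 4.26 in ControlB and 2.78 and 3.17 with nApoE3. The secreted angiopoietin-like protein Angptl6 showed the same opposition, with responses of 1.36 and −0.61 and a difference of 1.98 ± 0.15 (SE, adjusted p = 1.1e-06). Neurl1a, a ubiquitin ligase, and Recql4, a DNA helicase, followed with differences of 1.86 and 1.74 and shares of −4.47% and −6.92%. Both rose with nApoE4, by 0.77 and 0.70, and fell with nApoE3, with log2 changes of −1.08 and −1.04. In GRCm38.p6, Ankrd44 lies on chromosome 1, 54645340 to 54928983, and Angptl6 on chromosome 9, 20873808 to 20879822, where it overlaps Shfl. Of the 102 genes described by name that had a RefSeq position, 33 overlapped another annotated gene, and the strand setting of the counting was not given in the sources used here, so reads of overlapping genes may be shared.

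The second group had treated levels within 0.25 of each other, so the treated cells supplied no more than that to any difference. A gene with a small difference can meet both limits. It held 935 genes by the same limits on counts, 559 higher and 376 lower with nApoE4. Fas was at 0.376, 0.223 and 0.214 CPM in ControlA, 26.2, 24.1 and 26.8 with nApoE4, 1.08, 1.07 and 1.72 in ControlB and 26.4 and 24.2 with nApoE3. Fas, a death receptor, was about equal in the 5 treated samples, and every ControlA sample was below every ControlB sample. Fas held only 16, 10 and 10 counts in ControlA, so its untreated gap and share rest on few reads. Its difference of response was 2.26 ± 0.29 (SE, adjusted p = 9.8e-05), the untreated gap was −2.23, the treated gap was 0.02, and the share in the controls was 98.95%. Bnip3 was at 373, 444 and 338 CPM in ControlA, 81.98, 69.1 and 74.4 with nApoE4, 64.1, 65.5 and 77.2 in ControlB and 99.98 and 70.7 with nApoE3. Bnip3, a mitochondrial receptor for mitophagy, was high in ControlA only, and the other 8 samples lay between 64.1 and 99.98 CPM. The difference was −2.66 ± 0.19 (SE, adjusted p = 6.5e-07), of which 93.2% lay in the controls.

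Of the other genes of this group, Fam167a (1.94, share 88.1%) and Gdnf, a neurotrophic factor (1.82, share 112%), were higher with nApoE4. Gdnf was at 0.517, 0.402 and 0.450 CPM in ControlA, 9.84, 14.2 and 10.6 with nApoE4, 1.76, 1.94 and 1.95 in ControlB and 13.9 and 12.98 with nApoE3. Gdnf rose in all 5 treated samples from untreated levels that were lower in every ControlA sample. Lower with nApoE4 were Ppp1r3b, which targets protein phosphatase 1 to glycogen (−2.05, share 87.9%), Baiap2, an adaptor of the actin cytoskeleton (−1.74, share 97.4%), and Pilrb2, a paired receptor of myeloid cells (−1.60, share 88.9%). Baiap2 changed by −0.85 with nApoE4 and 0.89 with nApoE3 and met at the same level, with 24.2 to 28.8 CPM in all 5 treated samples. Mir682 also met this rule (1.48, adjusted p = 0.033), but its samples spread from 18.9 to 55.3 CPM within ApoE4, it overlaps Gm4149, and the call was lost under 6 of the alternative settings.

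The largest differences of all, among genes past the same limits, mixed both parts. Ankrd37 was at 85.8, 101 and 80.5 CPM in ControlA, 1.26, 1.20 and 1.79 with nApoE4, 6.32, 6.80 and 7.06 in ControlB and 5.43 and 3.79 with nApoE3. Ankrd37, a known HIF target, was highest in all 3 ControlA samples and lowest in all 3 nApoE4 samples, while the nApoE3 experiment stayed in between. Its difference of −5.44 ± 0.23 (SE, adjusted p = 8.6e-09) was made of an untreated gap of 3.73 and a treated gap of −1.71, a share of 68.6% in the controls. Ier3 was at 57.3, 56.4 and 47.4 CPM in ControlA, 35.3, 33.5 and 30.99 with nApoE4, 5.55, 5.23 and 6.83 in ControlB and 72.3 and 62.2 with nApoE3. Ier3, an immediate early gene, fell with nApoE4 and rose with nApoE3 to beyond the ControlA level, from controls that lay far apart, so that 75.9% of the difference of −4.21 ± 0.15 (SE, adjusted p = 3.1e-09) lay in the controls. Hmox1 was at 596, 702 and 577 CPM in ControlA, 419, 401 and 418 with nApoE4, 436, 403 and 459 in ControlB and 2431 and 3120.0 with nApoE3. Heme oxygenase, encoded by Hmox1, stood out in the 2 nApoE3 samples alone, and only 16.2% of its difference of −3.28 ± 0.14 (SE, adjusted p = 8.6e-09) lay in the controls.

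Ifit1bl1 was at 0.470, 0.201 and 0.236 CPM in ControlA, 1.80, 1.44 and 2.12 with nApoE4, 0.312, 0.436 and 1.05 in ControlB and 34.6 and 31.9 with nApoE3. Both nApoE3 samples of this interferon-induced gene were far above the nApoE4 samples, its difference was −3.27 ± 0.61 (SE, adjusted p = 0.0014), and its share of −28.9% was under 0. It overlaps Ifit3b, Ifit1bl2 and Ifit1, so its own reads are uncertain. Slc2a1 was at 234, 247 and 218 CPM in ControlA, 89.95, 91.5 and 92.1 with nApoE4, 50.1, 50.9 and 57.2 in ControlB and 171 and 147 with nApoE3. Slc2a1, the glucose transporter Glut1, fell in every nApoE4 sample and rose in every nApoE3 sample, with a difference of −2.94 ± 0.10 (SE, adjusted p = 3.1e-09) and 72.8% in the controls. Apold1, an apolipoprotein L domain gene, fell with both fragments and had a difference of −2.97 with 75.2% in the controls, since ControlA held 21.5 ± 0.873 CPM (SD, n = 3) and ControlB 4.58 ± 0.464 (SD, n = 3).

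Higher with nApoE4, Extl1 led. Extl1 was at 5.57, 5.80 and 6.15 CPM in ControlA, 21.04, 21.7 and 21.6 with nApoE4, 8.20, 7.75 and 9.09 in ControlB and 4.26 and 4.22 with nApoE3. This glycosyltransferase of heparan sulfate synthesis rose with nApoE4 and fell with nApoE3 with no overlap between any groups, and 18.01% of the difference of 2.85 ± 0.11 (SE, adjusted p = 7.6e-09) lay in the controls. Rcsd1 was at 13.5, 13.7 and 14.2 CPM in ControlA, 44.3, 47.8 and 45.5 with nApoE4, 46.5, 46.7 and 45.6 in ControlB and 36.1 and 35.3 with nApoE3. Rcsd1, which binds the actin capping protein CapZ, was low only in ControlA, and 82.8% of its difference of 2.11 ± 0.07 (SE, adjusted p = 2.6e-09) lay in the controls. Hey1, a transcriptional repressor downstream of Notch, fell in both experiments, by 0.78 with nApoE4 and by 2.77 with nApoE3 on the log2 scale, and reached 4.45 to 4.99 and 3.40 to 3.42 CPM, with 76.1% of the difference of 2.00 in the controls. Extl1 lies on chromosome 4, 134356373 to 134372547, Hmox1 on chromosome 8, 75093618 to 75100593, and Ankrd37 on chromosome 8, 45996908 to 46000414, where it overlaps Ufsp2.

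**Figure D3:**
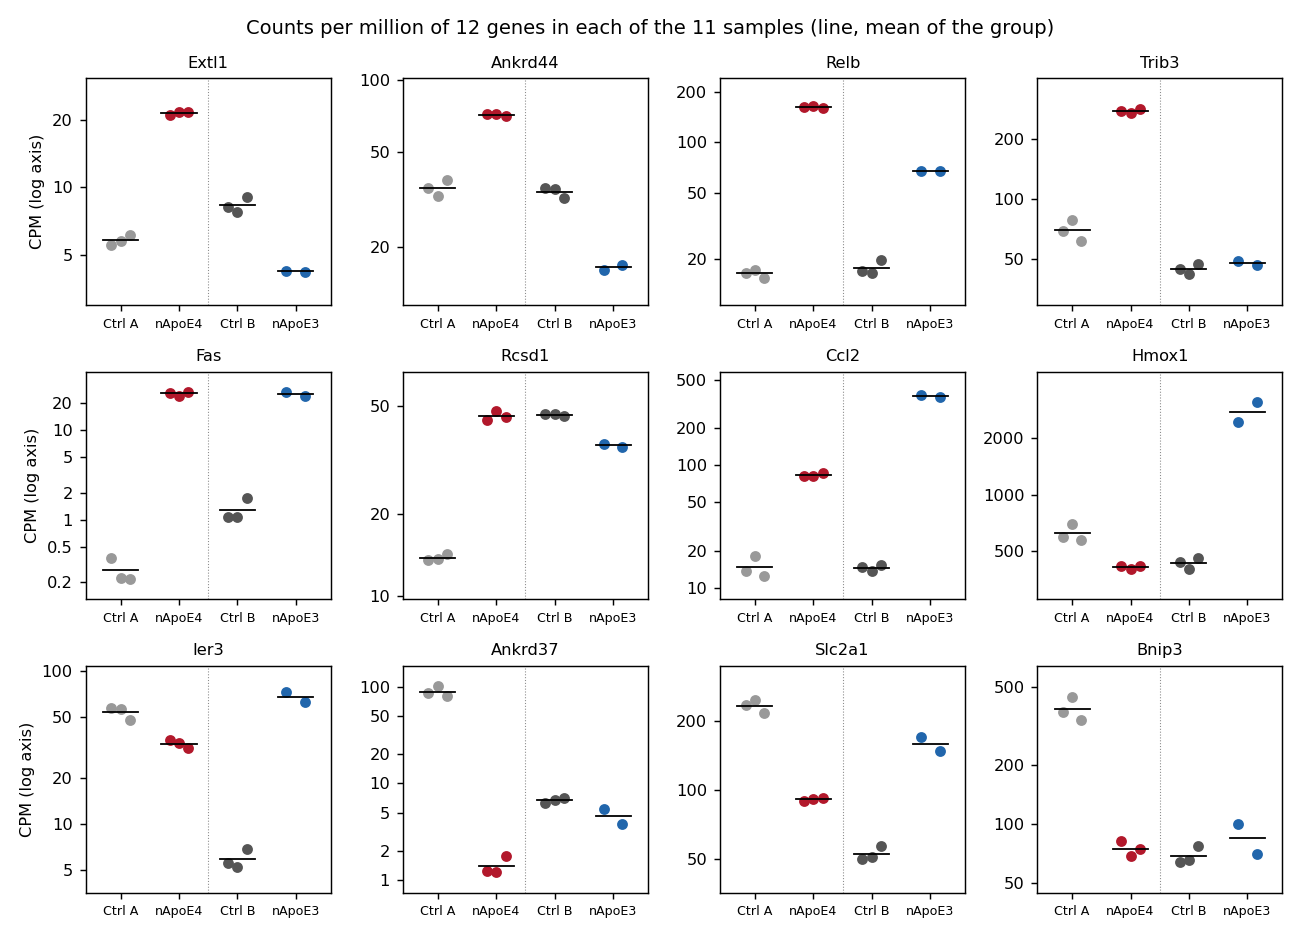
CPM (y axis, log scale) of 12 genes in every sample, by group, with a line at the group mean and a dotted line between the experiments. Ankrd44, Relb and Ccl2 began at like untreated levels, whereas Fas, Rcsd1, Ankrd37, Slc2a1 and Bnip3 began apart.

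Past the same limits on counts, 173 genes were raised by nApoE4 and lowered by nApoE3, and 196 were lowered by nApoE4 and raised by nApoE3. Ranked by the smaller of both responses, Ankrd44, Extl1 and Igsf9b led among the first and Slc2a1, Il7r and Hilpda among the second. Il7r was at 14.7, 15.8 and 14.8 CPM in ControlA, 6.46, 6.71 and 6.55 with nApoE4, 0.425, 0.549 and 0.497 in ControlB and 1.12 and 1.20 with nApoE3. The receptor chain for interleukin 7 was far higher in the nApoE4 experiment, treated or not, with a treated gap of 2.50 and a share of 202%, and its responses were −1.20 to nApoE4 and 1.25 to nApoE3. Hilpda was at 38.8, 46.2 and 35.9 CPM in ControlA, 15.8, 12.7 and 14.5 with nApoE4, 9.10, 9.84 and 11.1 in ControlB and 21.98 and 18.97 with nApoE3. Hilpda, a lipid droplet protein induced by hypoxia, was highest in ControlA and lowest in ControlB, and 79.6% of its difference of −2.53 ± 0.16 (SE, adjusted p = 2.4e-07) lay in the controls. Igsf9b, an adhesion protein of synapses, had nearly equal parts, with 46.9% of 1.63 in the controls.

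Counts and medians of gene lists cover tested members only, and the filter on low counts left some members untested. Among these were Ifit1 and Ifit3b (antiviral), Ccl5, Cxcl9 and Cxcl10 (chemokines), Il6, Il12a and Csf1 (cytokines) and B2m and Tap2 (MHC class I). Among the 29 gene lists described, hypoxia targets and glycolysis had the highest share of called members. Of its 35 tested members, 29 were called lower and 2 higher with nApoE4, beside 13.9% and 14.4% of all genes tested, and the median difference was −0.64 beside a median of 0.0025 over all genes. The median untreated gap was 0.83 and the median treated gap 0.09. Of the 31 called members, 26 had a share over 50%, beside 41.9% of all called genes. Of these 26, 16 were over 100%, and the median share of the called members was 108%. With nApoE4, 30 of the 35 members fell and 3 rose, beside 30.3% and 30.0% of all genes tested. With nApoE3, 11 fell and 12 rose, beside 27.4% and 27.0%. Slc2a1, Bnip3 and Ankrd37 are described above, and the glycolytic enzymes Hk2 (−1.78, share 16.3%) and Pfkl (−1.76, share 28.6%) were, with P4ha1, among the 5 called members that lay mostly in the treated cells. Hif1a, the oxygen-regulated subunit of HIF, was one of the 2 higher members (0.40, adjusted p = 0.0064), with a share of 151%. Hk2, Pfkl, Hif1a and Gapdh were chosen after their values were seen. Gapdh, a glycolytic enzyme, held 223 ± 16.3 CPM in ControlA and 26.7 ± 2.97 in ControlB (SD, n = 3 each), and 185 ± 10.5 with nApoE4 (SD, n = 3) and 37.9 ± 2.28 with nApoE3 (SD, n = 2), so its gap between experiments far exceeded its difference of response of −0.78. Leaving out 1 sample at a time, 28 or 29 members were called lower.

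The letters ACGTG, the core of the hypoxia response element, were searched on both strands in RefSeq promoter windows of GRCm38.p6, each from 250 bases before to 50 bases after a gene's start. They were found in 23 of 32 listed members with a window (71.9%) and in 28.0% of 11376 tested genes with a window. The windows of 3 members are shown with the matched letters in capitals, for the 2 whose difference lay mostly in the controls and for P4ha1, whose difference lay in the treated cells.
Ankrd37 (chr8:45999801-46000100, minus strand): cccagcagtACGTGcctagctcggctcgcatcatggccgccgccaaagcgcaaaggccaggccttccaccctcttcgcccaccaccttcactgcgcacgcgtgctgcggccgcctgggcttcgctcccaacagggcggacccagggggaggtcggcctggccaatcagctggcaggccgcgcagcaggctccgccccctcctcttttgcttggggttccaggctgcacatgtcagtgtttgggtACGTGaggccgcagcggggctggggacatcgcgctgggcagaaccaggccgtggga
Bnip3 (chr7:138909457-138909756, minus strand): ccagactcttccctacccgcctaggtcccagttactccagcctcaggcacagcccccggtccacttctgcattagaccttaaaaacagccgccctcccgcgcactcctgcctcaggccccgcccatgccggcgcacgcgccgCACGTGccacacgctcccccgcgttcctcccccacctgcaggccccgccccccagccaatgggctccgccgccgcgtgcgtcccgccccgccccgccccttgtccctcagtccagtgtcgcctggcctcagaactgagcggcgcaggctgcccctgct
P4ha1 (chr10:59323046-59323345, plus strand): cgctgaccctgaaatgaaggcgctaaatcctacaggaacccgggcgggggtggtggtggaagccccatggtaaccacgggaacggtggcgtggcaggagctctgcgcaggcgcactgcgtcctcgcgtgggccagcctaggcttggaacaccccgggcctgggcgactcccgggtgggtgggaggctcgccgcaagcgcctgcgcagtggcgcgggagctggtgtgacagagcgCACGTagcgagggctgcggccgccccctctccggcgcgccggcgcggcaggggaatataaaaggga
A match describes the letters only. All 3 windows hold them, though the members differ in where their difference lies.

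Immediate early and AP-1 genes had a like pattern. Of 23 tested, 13 were called lower (56.5%) and 4 higher (17.4%), beside 13.9% and 14.4% of all genes. The median difference was −0.81, the median untreated gap 0.60 and the median treated gap 0.06. Of the 17 called, 10 had a share over 50%, beside 41.9% of all called genes. Jun was at 58.2, 59.4 and 56.3 CPM in ControlA, 31.1, 31.8 and 30.6 with nApoE4, 70.2, 66.5 and 71.7 in ControlB and 115 and 113 with nApoE3. All nApoE3 samples of Jun, a subunit of AP-1, were above and all nApoE4 samples below both controls, and its difference was −1.61 ± 0.07 (SE, adjusted p = 7.6e-09) with a share of −16.2%. Btg2, an antiproliferative early gene, rose with both fragments and had a share of 147% in its difference of −1.18.

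**Figure D4:**
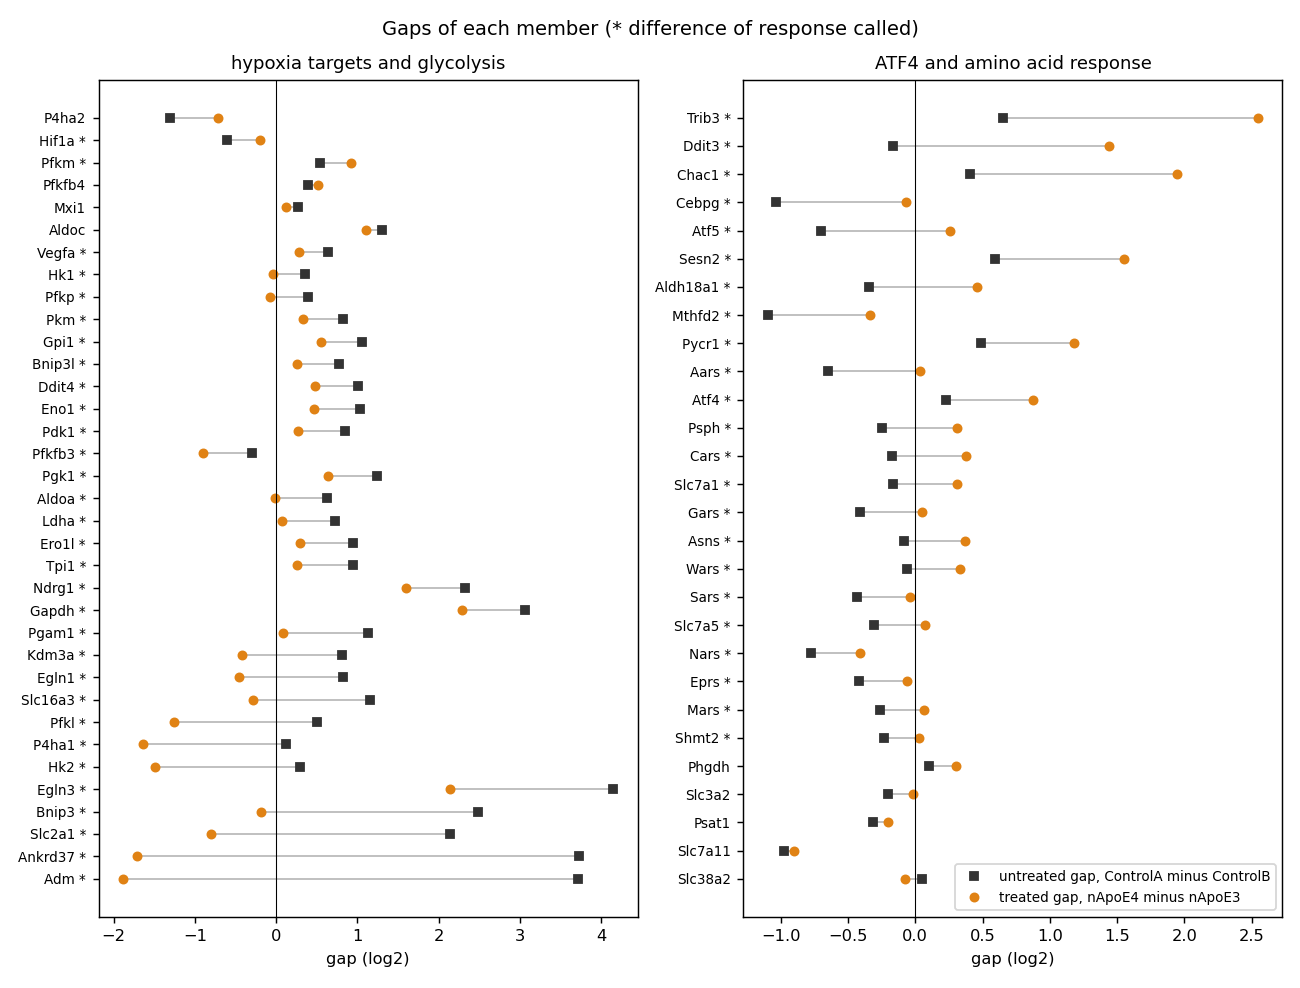
Untreated gap (square) and treated gap (circle) in log2 (x axis) for each tested member of the hypoxia and glycolysis list and of the ATF4 list (y axis, sorted by difference of response, called members starred). In the hypoxia list 31 members were called and the squares lay mostly to the right of the circles, with a median untreated gap of 0.83, and in the ATF4 list 23 were called and the squares lay to the left, with a median untreated gap of −0.24.

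The ATF4 and amino acid list moved the other way. Of 28 tested members, 23 were called higher with nApoE4 (82.1%) and 0 lower by edgeR, beside 14.4% and 13.9% of all genes. DESeq2 also called 23 and 0, and the counts at an unadjusted p under 0.05 were the same. The median difference was 0.47. It was spread over both parts, with a median untreated gap of −0.24, a median treated gap of 0.16 and 11 of the 23 called members at a share over 50%, where 41.9% of all called genes were. The list rose with nApoE4 in 26 members, and with nApoE3 in 13, beside 30.0% and 27.0% of all genes tested. Trib3 was at 68.95, 78.6 and 61.4 CPM in ControlA, 277, 272 and 284 with nApoE4, 44.3, 41.6 and 46.8 in ControlB and 48.7 and 46.4 with nApoE3. The pseudokinase Trib3 rose with nApoE4, its response to nApoE3 of 0.10 did not pass the test, its difference was 1.89 ± 0.11 (SE, adjusted p = 1.8e-07), and its share was −34.6%, ControlA being above ControlB. Ddit3 was at 31.5, 32.4 and 31.3 CPM in ControlA, 109.6, 107 and 116 with nApoE4, 33.05, 34.04 and 39.8 in ControlB and 39.6 and 41.9 with nApoE3. Ddit3, which encodes the transcription factor Chop, had a difference of 1.61 ± 0.10 (SE, adjusted p = 1.8e-07) with 10.3% in the controls. Cebpg, a partner of ATF4, differed by 0.96 with 107% in the controls, and its treated groups overlapped, with a gap of −0.07. Ddit3 overlaps Mbd6 and Mars1.

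The letters TGATGNAA of the C/EBP-ATF response element, read on both strands, stood in 7 of 23 members with a window (30.4%) and in 3.09% of all tested genes with a window. Trib3, the leading member, is shown with its match in capitals.
Trib3 (chr2:152344011-152344310, minus strand): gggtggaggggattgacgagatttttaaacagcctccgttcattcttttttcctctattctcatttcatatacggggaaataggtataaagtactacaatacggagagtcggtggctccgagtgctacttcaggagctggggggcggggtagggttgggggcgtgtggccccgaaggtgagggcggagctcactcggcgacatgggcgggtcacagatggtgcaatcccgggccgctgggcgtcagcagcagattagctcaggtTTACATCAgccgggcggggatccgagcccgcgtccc
Of the other leading members, the windows of Ddit3 and Cebpg did not hold these letters.

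Sterol and fatty acid synthesis genes were called higher in 18 of 30 cases (60%) and lower in 0 by edgeR, as by DESeq2. All genes tested stood at 14.4% and 13.9%. The median difference was 0.38, and at an unadjusted p under 0.05 the counts were 20 and 1. The difference lay mostly in the treated cells, with a median untreated gap of 0.05 and a median treated gap of 0.30. Of the 18 called members, 13 had a share under 50% and 5 over 50%, beside 41.9% of all called genes over 50%. Hmgcs1 was at 174, 181 and 173 CPM in ControlA, 343, 300.3 and 319 with nApoE4, 164, 162 and 160.5 in ControlB and 171 and 169.7 with nApoE3. Hmgcs1, the synthase ahead of the rate-limiting step of cholesterol synthesis, was above its controls in each nApoE4 sample, its response to nApoE3 was 0.07 and did not pass the test, and its difference was 0.80 ± 0.08 (SE, adjusted p = 5.9e-06) with a share of −14.6%. Mvd (0.82, adjusted p = 2.3e-06) and Lss (0.78, adjusted p = 0.0002), later enzymes of the same path, had shares of −48.8% and −69.5%. A sterol regulatory element, read as ATCAC, any base and CCAC on either strand, was in 0 of 21 members with a window and in 0.202% of all genes with a window. Genes of cholesterol efflux and ApoE handling were called lower in 7 (38.9%) and higher in 1 (5.56%) of 18, led by Msr1, a scavenger receptor. Without ApoE3 replicate 1 the count lower was 4. Msr1 was at 60.00, 66.4 and 60.1 CPM in ControlA, 36.5, 38.9 and 40.9 with nApoE4, 50.1, 51.3 and 51.9 in ControlB and 81.4 and 82.5 with nApoE3. Msr1 fell with nApoE4 and rose with nApoE3, with a difference of −1.36 ± 0.08 (SE, adjusted p = 1.2e-07) and 20.8% in the controls. The sterol exporters Abca1 (−0.51, adjusted p = 0.017) and Abcg1 (−0.43, adjusted p = 0.004) were lower as well. The edgeR call of Abca1 was lost with library size alone (adjusted p = 0.0562) and without ApoE3 replicate 1. With a replicate block the calls of Abca1 (adjusted p = 0.115) and Abcg1 (0.0638) were lost. The difference of Apoe itself, chosen after its value was seen, was 0.23 (adjusted p = 0.089).

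Of 42 tested interferon-induced antiviral genes, 41 rose with nApoE4 and 41 with nApoE3, beside 30.0% and 27.0% of all genes. The difference was called lower with nApoE4 in 21 (50%) and higher in 3 (7.14%), beside 13.9% and 14.4% of all genes. The median difference was −0.57, with a median untreated gap of −0.25 and a median treated gap of −1.01. Of the 24 called members, 19 had a share under 50% and 5 over 50%, beside 41.9% of all called genes over 50%. Samd9l was at 16.1, 17.6 and 16.8 CPM in ControlA, 78.9, 79.1 and 88.2 with nApoE4, 4.94, 5.12 and 8.29 in ControlB and 148 and 147 with nApoE3. Samd9l, an antiviral regulator, was higher in ControlA than in ControlB and reached its highest levels in both nApoE3 samples, with a difference of −2.32 ± 0.19 (SE, adjusted p = 2e-06) and 63.4% in the controls. Isg20 was at 0.657, 0.535 and 0.643 CPM in ControlA, 3.73, 3.30 and 4.71 with nApoE4, 0.468, 0.372 and 0.408 in ControlB and 12.3 and 10.6 with nApoE3. The exonuclease Isg20 differed by −2.10 ± 0.26 (SE, adjusted p = 5.9e-05), with 26.1% in the controls. Its 2 nApoE3 samples were above all nApoE4 samples.

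Guanylate-binding and immunity-related GTPases, which attack the vacuoles of intracellular microbes, were called lower in 6 (46.2%) and higher in 2 (15.4%) of 13. All genes tested stood at 13.9% and 14.4%. The median difference of the list was −0.96. Irgm1 was at 4.98, 6.76 and 3.90 CPM in ControlA, 20.2, 18.5 and 19.96 with nApoE4, 3.81, 3.99 and 4.74 in ControlB and 41.2 and 47.6 with nApoE3. Irgm1 was higher in all treated samples and highest in both nApoE3 samples, with a difference of −1.51 ± 0.21 (SE, adjusted p = 0.00016) and 21.4% in the controls. Gbp3 was at 8.50, 8.14 and 7.95 CPM in ControlA, 124, 112 and 123 with nApoE4, 4.60, 4.17 and 4.68 in ControlB and 168 and 156 with nApoE3. Gbp3 had a smaller treated gap of −0.43 and 66.7% of its difference of −1.30 ± 0.09 (SE, adjusted p = 6.6e-07) in the controls. Gbp8 was at 5.47, 6.25 and 6.92 CPM in ControlA, 12.9, 18.4 and 16.2 with nApoE4, 2.17, 2.28 and 2.25 in ControlB and 2.13 and 2.11 with nApoE3. Gbp8 was one of the 2 higher members. It rose with nApoE4 (1.35) while its response to nApoE3 was −0.07, and its share was −104%.

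An interferon-stimulated response element, read as GAAA, any 2 bases and GAAA on either strand, was in 18 of 34 antiviral members with a window (52.9%), in all 7 GTPase members with a window, and in 3.82% of all tested genes with a window. Irgm1 and the first of 2 windows of Gbp3 are shown because the difference of Irgm1 lay mostly in the treated cells and that of Gbp3 mostly in the controls, and capitals mark the matches, which overlap.
Irgm1 (chr11:48871371-48871670, minus strand): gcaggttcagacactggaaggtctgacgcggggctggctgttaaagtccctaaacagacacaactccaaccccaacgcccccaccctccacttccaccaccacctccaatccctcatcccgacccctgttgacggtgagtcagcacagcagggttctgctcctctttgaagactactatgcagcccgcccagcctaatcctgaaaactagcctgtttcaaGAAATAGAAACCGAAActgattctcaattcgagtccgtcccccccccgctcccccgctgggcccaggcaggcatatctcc
Gbp3 (chr3:142559794-142560093, plus strand): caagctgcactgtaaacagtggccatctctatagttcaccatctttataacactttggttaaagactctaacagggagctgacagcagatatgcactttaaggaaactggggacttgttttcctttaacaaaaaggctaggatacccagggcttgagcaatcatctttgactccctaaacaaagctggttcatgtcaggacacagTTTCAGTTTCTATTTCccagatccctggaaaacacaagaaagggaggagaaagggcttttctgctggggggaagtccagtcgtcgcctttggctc
Both windows shown held 2 matches, so the number in them does not tell these genes apart, while the second window of Gbp3 held 0. Of the leading antiviral members, the windows of Samd9l and Isg20 held 0 and each of the 2 windows of Ifit1bl1 held 1.

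Among interferon signalling genes 9 were called lower (42.9%) and 5 higher (23.8%) of 21, beside 13.9% and 14.4% of all genes. Directions within the list were mixed. Irf7 was at 3.59, 2.85 and 3.51 CPM in ControlA, 49.2, 49.3 and 49.1 with nApoE4, 3.27, 3.34 and 5.15 in ControlB and 164 and 149 with nApoE3. Irf7, the interferon regulatory factor that amplifies the type I response, rose further with nApoE3, and its difference of −1.44 ± 0.20 (SE, adjusted p = 0.00013) had a share of −15.7%. Irf1 was at 26.3, 26.1 and 24.1 CPM in ControlA, 342, 322 and 332 with nApoE4, 31.4, 29.00 and 33.7 in ControlB and 177 and 164 with nApoE3. Irf1 rose further with nApoE4, with a difference of 1.26 ± 0.09 (SE, adjusted p = 6.5e-07) and 23.8% in the controls. Stat3, which passes on cytokine signals, was even in all 6 untreated samples, at 45.4 to 48.1 CPM, rose by 1.29 with nApoE3 and by 0.24 with nApoE4, and differed by −1.05.

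Of 12 tested chemokines, 4 were called lower (33.3%) and 3 higher (25%), beside 13.9% and 14.4% of all genes. Their median difference was 0.48, with 8 members above 0 and 4 below. The members described, Ccl2, Ccl7 and Ccl3, were all lower. The count lower was 4 in every fit that left out 1 sample, and the count higher was 1 without ApoE3 replicate 2, 4 without ControlA replicate 2 and 0 with a replicate block. Besides Ccl2, Ccl7 was at 1.71, 2.45 and 1.61 CPM in ControlA, 7.95, 9.72 and 10.5 with nApoE4, 1.64, 1.23 and 1.44 in ControlB and 55.3 and 51.3 with nApoE3. Ccl7, another monocyte attractant, was highest in both nApoE3 samples and differed by −2.92 ± 0.22 (SE, adjusted p = 1.1e-06), with 14.2% in the controls. Ccl3 differed by −1.59 with 73.3% in the controls, where ControlA held 128 ± 18.7 and ControlB 57.1 ± 2.94 CPM (SD, n = 3 each). Cytokines were called lower in 5 (29.4%) and higher in 1 (5.88%) of 17. Il15 had an untreated gap of 2.19, a difference of −1.26 and a share of 174%, and Il1rn, the antagonist of the interleukin 1 receptor, had −0.95 and 35.3%. Il1a, which encodes interleukin 1 alpha, differed by −1.09 (adjusted p = 0.022), with a share of −57.04%, and the call was lost without ControlA replicate 1 (adjusted p = 0.126), without ApoE3 replicate 2 (0.0521) and with a replicate block (0.115).

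NF-kB subunits and feedback inhibitors were called higher in 11 (55%) and lower in 5 (25%) of 20, beside 14.4% and 13.9% of all genes. The median difference was 0.25. Relb was at 16.6, 17.3 and 15.5 CPM in ControlA, 162, 165 and 160.1 with nApoE4, 17.03, 16.5 and 19.9 in ControlB and 67.4 and 67.8 with nApoE3. Relb and Rel, subunits of NF-kB, rose with both fragments and further with nApoE4 from untreated groups that overlapped, with differences of 1.37 ± 0.10 (SE, adjusted p = 5.2e-07) and 0.84 ± 0.17 (SE, adjusted p = 0.0024) and shares of 7.92% and 6.35%. Tnip3 was at 14.6, 14.97 and 13.3 CPM in ControlA, 34.5, 28.2 and 32.3 with nApoE4, 1.63, 1.84 and 1.93 in ControlB and 25.8 and 25.3 with nApoE3. Tnip3, an inhibitor that works with A20, had an untreated gap of 2.99 and a smaller treated gap of 0.31 (adjusted p = 0.0047). Each nApoE4 sample of Tnip3 was above both nApoE3 samples, and its difference of −2.68 ± 0.13 (SE, adjusted p = 2.4e-08) had a share of 112%. An NF-kB site, read as GGGA, any base and TTTCC on either strand, was in 3 of 17 members with a window (17.6%) and in 0.536% of all tested genes with a window. Toll-like receptors and adaptors were called lower in 10 (41.7%) and higher in 1 (4.17%) of 24. Tlr13 was at 186, 199 and 202 CPM in ControlA, 25.2, 23.9 and 25.2 with nApoE4, 95.7, 102 and 102 in ControlB and 54.5 and 63.6 with nApoE3. Tlr13, a sensor of bacterial RNA, fell in both experiments and lowest with nApoE4, with 43.7% of −2.22 ± 0.09 (SE, adjusted p = 7.6e-09) in the controls. Ticam2, the adaptor TRAM, was the one higher member (1.92, adjusted p = 8.6e-09), and Tlr3 was lower (−1.17, adjusted p = 8.7e-07) with a share of −38.3%.

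Enzymes for nitric oxide, itaconate and prostaglandins were called lower in 4 and higher in 4 of 16 (25% each), beside 13.9% and 14.4% of all genes. Ptgs2 was at 2.65, 1.90 and 2.55 CPM in ControlA, 67.5, 61.4 and 61.7 with nApoE4, 6.01, 5.51 and 6.46 in ControlB and 386 and 381 with nApoE3. Ptgs2, the inducible cyclooxygenase, began higher in ControlB and rose further with nApoE3, with a difference of −1.26 ± 0.14 (SE, adjusted p = 2.1e-05) and a share of −107%. Acod1 was at 8.90, 6.98 and 8.04 CPM in ControlA, 2600.0, 2587 and 2535 with nApoE4, 6.83, 7.71 and 9.60 in ControlB and 1566 and 1520.0 with nApoE3. Acod1, which makes itaconate, was alike in all 6 untreated samples and higher in each nApoE4 sample than in each nApoE3 sample, with a difference of 0.75 ± 0.15 (SE, adjusted p = 0.0022) and a share of 1.01%. Nos2, the inducible nitric oxide synthase, had overlapping treated samples and 86.1% of its difference of −2.07 (adjusted p = 0.0093) in the controls. ControlB held only 11, 12 and 9 counts of Nos2, and the call was lost in the limma fit with sample weights (adjusted p = 0.123). Leaving out 1 sample at a time, this list had 2 to 6 called higher and 2 to 4 lower. MHC class I genes were called higher in 2 (14.3%) and lower in 1 (7.14%) of 14, no more than the 14.4% and 13.9% of all genes. H2-T22 was lower (−0.74) and H2-Q4 higher (0.44, a call lost under 8 alternatives). Reads of these near-identical genes may be shared, and without ControlA replicate 3 the count lower was 5 in place of 1.

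NRF2 antioxidant genes were called lower in 7 (35%) and higher in 0 of 20 by edgeR, beside 13.9% and 14.4% of all genes. They were led by Hmox1, followed by Osgin1 (−1.28, share 146%) and with Prdx1 among them (−0.49, share −130.1%). The edgeR call of Prdx1 was lost with a replicate block (adjusted p = 0.0867). At an unadjusted p under 0.05 the counts were 8 lower and 1 higher, and DESeq2 also called 8 and 1. Metallothionein and metal transport genes were called lower in 6 (42.9%) and higher in 1 (7.14%) of 14. Mt1 was at 633, 762 and 629.5 CPM in ControlA, 329, 292 and 295 with nApoE4, 266, 274 and 295 in ControlB and 309 and 297 with nApoE3. Mt1 was high in ControlA only, with 101% of its difference of −1.27 ± 0.11 (SE, adjusted p = 3.6e-06) in the controls, whereas the iron exporter Slc40a1 (−0.84) and the transferrin receptor Tfrc (−0.70) had shares of −150.2% and −108%. Heat shock proteins were called lower in 6 and higher in 1 of 16, with differences of −0.65 for the cochaperone Bag3 and −0.46 for the chaperone Hspa8, and without ApoE3 replicate 1 the count lower was 3. The heat shock calls made up 37.5% (lower) and 6.25% (higher) of the list. Hsph1, another chaperone, had 106 ± 5.85 CPM in ControlA, 446 ± 6.30 in ControlB (SD, n = 3 each), an untreated gap of −2.07, a treated gap of −2.53 and a difference of −0.46. Endoplasmic reticulum chaperones were called higher in 4 and lower in 2 of 21 (19% and 9.52%), with Herpud1 at 0.85, Sel1l at 0.68 and Dnajb9 at −0.61, and these shares are close to the 14.4% and 13.9% of all genes tested.

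**Figure D5:**
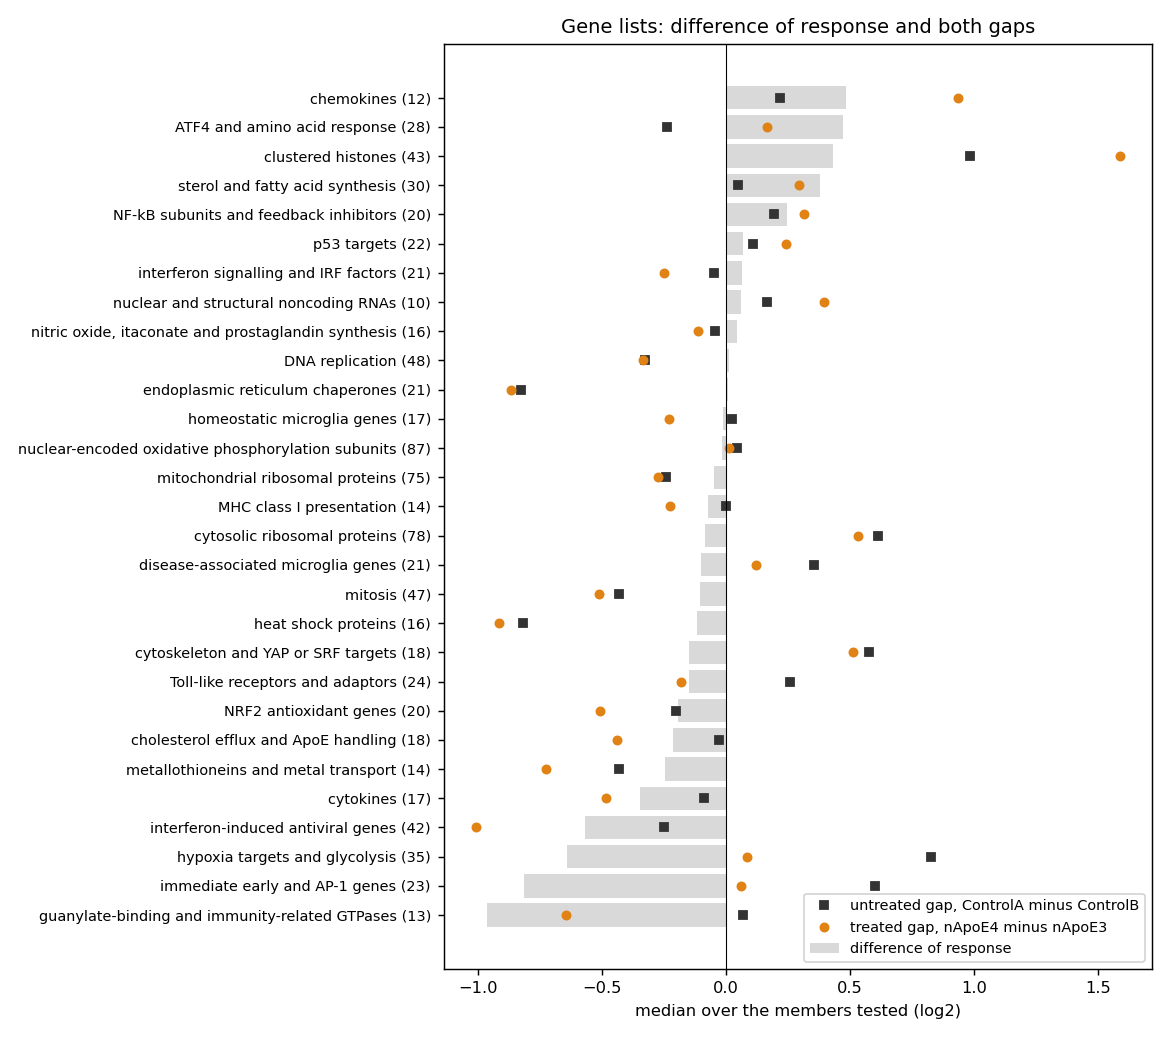
Median difference of response (bars), untreated gap (squares) and treated gap (circles) of 29 gene lists in log2 (x axis), with the number of members tested in brackets. Heat shock, ribosomal and endoplasmic reticulum lists had both gaps side by side and medians near 0, the hypoxia list had a median of −0.64 with the untreated gap far to the right, and the antiviral list had a median of −0.57 with the treated gap far to the left.

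DNA replication genes were called higher in 8 (16.7%) and lower in 9 (18.8%) of 48, near the 14.4% and 13.9% of all genes tested. The median was 0.01, although 44 fell with each fragment, beside 30.3% of all genes tested with nApoE4 and 27.4% with nApoE3. Ung was at 31.3, 33.6 and 32.4 CPM in ControlA, 3.90, 4.64 and 5.22 with nApoE4, 57.8, 57.2 and 57.7 in ControlB and 16.4 and 14.2 with nApoE3. The uracil glycosylase Ung fell in both experiments and was lowest in all 3 nApoE4 samples, with a difference of −0.92 ± 0.12 (SE, adjusted p = 9.1e-05) and a share of −90.3%. Mitosis genes were called lower in 16 (34%) and higher in 1 (2.13%) of 47, with a median of −0.10 and Ube2c at −0.56, Bub1 at −0.52 and Cdk1 at −0.46. Both counts moved with single samples. Without ControlA replicate 2 there were 13 DNA replication genes higher, without ApoE3 replicate 1 there were 5 lower, and leaving out 1 sample at a time gave 8 to 20 mitosis genes lower, with 8 without ApoE3 replicate 1 and without ApoE4 replicate 2. Targets of p53 were called higher in 7 (31.8%) and lower in 2 (9.09%) of 22, led by Fas, Gdf15 (1.34, share 52.8%) and Sesn1 (1.21, share 10.6%). Sesn1 fell with both fragments, by 1.44 with nApoE4 and by 2.64 with nApoE3 on the log2 scale.

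Genes of homeostatic microglia, the resting state, were called higher in 3 and lower in 3 of 17 (17.6% each), near the shares of all genes tested, and the count lower was 1 to 4 when 1 sample was left out, with 1 without either nApoE3 sample and without ApoE4 replicate 1, ControlB replicate 1 and ControlB replicate 3. Disease-associated microglia genes were called higher in 3 and lower in 2 of 21 (14.3% and 9.52%), no more than the 14.4% and 13.9% of all genes. Without ControlA replicate 2 the counts were 5 and 5. The transcription factor Mef2a was higher (0.74, share 50.4%) and so was the ectonucleotidase Entpd1 (0.35), while the receptor Tgfbr2 was lower (−0.26, adjusted p = 0.023), a call lost under 9 alternatives with adjusted p of 0.0507 to 0.153. Igf1, a growth factor, and Cst7, a cystatin, rose further with nApoE4 (0.86 and 0.61) from lower levels in ControlA, with shares of 174% and 311%, and the lysosomal protein Cd68 was lower (−0.46). Cytoskeletal and YAP or SRF targets were called lower in 4 and higher in 1 of 18 (22.2% and 5.56%, beside 13.9% and 14.4% of all genes). Vim was at −0.89, Lats2 at −0.92 and Tagln2 at −0.53. All 5 called members had a share over 50%, beside 41.9% of all called genes.

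Cytosolic ribosomal proteins had a median untreated gap of 0.61 and a median treated gap of 0.53, and 1 of 78 was called in the difference, Rpl7l1 at −0.28. Mitochondrial ribosomal proteins were called in 9 of 75, with Mrpl18 (−0.45), Mrpl51 (−0.42) and Mrpl42 (−0.40) as the leading members, and oxidative phosphorylation subunits in 6 of 87, with Ndufc2 at 0.52, Atp5s at 0.50 and Atp5g1 at −0.43. These small counts fell short of the 28.3% of all genes tested that were called, and they moved with single samples. Without ControlA replicate 2 there were 18 oxidative phosphorylation and 6 mitochondrial ribosomal genes higher in place of 4 and 2, and without ControlA replicate 3 there were 9 and 16 lower in place of 2 and 7 and 7 cytosolic ribosomal proteins lower in place of 1. Clustered histones were called higher in 4 of 43 (9.3%, beside 14.4% of all genes), or 2 without ApoE4 replicate 3 or without ApoE3 replicate 2, among them Hist1h1c (0.70) and Hist2h2be (0.31, a call lost under 5 alternatives), while both gaps were large, with medians of 0.98 untreated and 1.59 treated. Rpph1 was at 6.97, 7.87 and 4.54 CPM in ControlA, 3.24, 3.51 and 4.64 with nApoE4, 58.1, 52.4 and 58.7 in ControlB and 75.7 and 70.5 with nApoE3. Rpph1, the RNA of ribonuclease P, was far lower in all samples of the nApoE4 experiment than in any of the nApoE3 experiment, and its difference was −1.14 ± 0.23 (SE, adjusted p = 0.0021). Neat1, a nuclear long noncoding RNA, differed by 0.35 (adjusted p = 0.044) with a treated gap of 2.12, and the call was lost under 7 alternatives, with adjusted p of 0.0648 to 0.147.

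Finally, 62 called genes had 3 counts or fewer in every sample of some group, 32 higher and 30 lower with nApoE4, and no fold is given for them. Hc, which encodes complement C5, had the highest group mean among the higher ones. Hc was at 0.0235, 0 and 0.0643 CPM in ControlA, 10.7, 17.4 and 13 with nApoE4, 0.0850, 0.0969 and 0.0177 in ControlB and 0.344 and 0.390 with nApoE3. It was near 0 in all untreated samples, low in both nApoE3 samples and far above these in all nApoE4 samples. LOC102634900 was at 0, 0.0223 and 0.0429 CPM in ControlA, 6.97, 8.52 and 7.18 with nApoE4, 0.113, 0.0485 and 0.0532 in ControlB and 3.80 and 4.13 with nApoE3. This locus was near 0 in all untreated samples and highest in the nApoE4 samples. Among the lower ones, Clca1 was at 0.423, 0.602 and 0.771 CPM in ControlA, 5.57, 5.32 and 5.39 with nApoE4, 0.0283, 0 and 0.0355 in ControlB and 1.03 and 0.868 with nApoE3. Usp13 was at 1.25, 1.23 and 1.48 CPM in ControlA, 1.10, 0.914 and 0.983 with nApoE4, 0.0283, 0.0323 and 0.0355 in ControlB and 0.0688 and 0.106 with nApoE3. Clca1, a regulator of chloride channels, and Usp13, a deubiquitinase, had 3 counts or fewer in every ControlB sample. Both were higher in the treated cells of the nApoE4 experiment, and their lower response rests on that near absence in ControlB. Usp13 lost its call under 12 alternatives.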

How the data were processed

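Total RNA of 11 samples of BV2 cells was sequenced as single-end reads on an Illumina instrument. Per the labels and the study's methods, the authors trimmed reads with Trim Galore 0.5.0, checked them with FastQC 0.11.8, aligned them to GRCm38.p6 with HISAT2 2.1.0 and deposited raw read counts per gene from HTSeq 0.11.0. The annotation and the strand setting are not given in the sources used here. Multiply aligned reads were 11.7 to 13.2% of the tallied reads and lie outside the gene counts, so near-identical genes may be undercounted. The 5 tally entries at the end of each file stayed out of library sizes and tests.

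Genes were kept with edgeR 4.0.16 (filterByExpr by group), scaled by TMM and tested in R 4.3.3 with the quasi-likelihood test over 4 group means, with Benjamini-Hochberg adjustment over 15287 genes and a threshold of 0.05. SE is the log2 difference divided by the square root of F. No columns of authors' comparisons were used.

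Alternatives were DESeq2 1.42.0, its size factors, library size alone, other count filters, thinning to the smallest library, a replicate block, a test against a fold of 1.5 and leaving out each sample. A fit with sample weights (limma 3.58.1) was added after seeing the data. Where a named gene is said to lose its call under alternatives, the test against a fold of 1.5 was not counted. Genes were named by rule. Those past the limits on counts gave the 6 largest differences per direction, the 4 largest with an untreated gap within 0.25, the 4 largest with a treated gap within 0.25 and the 3 with the largest opposite responses, and each list gave up to 3 called members. Promoter windows and gene positions came from RefSeq tables of the same build. The gene groups, lists and rules were chosen with earlier results of these data known. Numbers shared between replicates of different groups do not mark a shared culture in the labels, and deviations of same-numbered samples correlated at −0.172 to −0.00792. With so few samples per group these correlations cannot tell whether cultures were shared.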

Additional observations from a re-analysis of the deposited data

Results flagged for a closer look

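The responses to the fragments differed by the test of the difference itself in 2208 genes higher and 2123 genes lower with nApoE4. The 6 largest differences per direction past the limits on counts and the 3 per direction with the largest opposite responses are listed here, and other genes differed more than the last of them. Higher with nApoE4 were Extl1 (log2 difference 2.85), Fas (2.26), Rcsd1 (2.11), Ankrd44 (2.07), Hey1 (2.00), Angptl6 (1.98) and Igsf9b (1.63). Lower were Ankrd37 (−5.44), Ier3 (−4.21), Hmox1 (−3.28), Ifit1bl1 (−3.27), Apold1 (−2.97), Slc2a1 (−2.94), Hilpda (−2.53) and Il7r (−2.44).

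Reads outside the gene counts also separated treated from untreated samples. The share of tallied reads on no annotated gene was at least 2.06% in the nApoE4 samples, where ControlA reached at most 2.01%, and at least 1.97% in the nApoE3 samples, where ControlB reached at most 1.90%. The share of ambiguous reads, which fall on overlapping genes, was at least 3.48% with nApoE4 against at most 3.38% in ControlA, and at least 3.43% with nApoE3 against at most 3.25% in ControlB. What these reads hold was not tested.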

How the results depend on the processing

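Of 4331 genes called, 2208 higher and 2123 lower, a test against a fold of 1.5 left 661 (286 higher, 375 lower) and the fit with a replicate block left 2307 (1150 higher, 1157 lower), of which 2287 were among the 4331. Deviations of same-numbered samples did not correlate above 0.1. With so few samples per group the deviations within a group depend on each other, so this cannot tell whether a shared number marks a shared culture. Leaving out 1 sample at a time gave 3040 (without ApoE3 replicate 1) to 5250 (without ControlA replicate 2) calls, 1547 to 2704 higher and 1493 to 2546 lower. DESeq2 called 4386, library size alone 4405 (2612 higher, 1793 lower), a filter of at least 1 count 4181 (2412 higher, 1769 lower), the stricter filter and thinning 4254 and 4092, and the added fit with sample weights 6154. Library size alone moved the median treated gap of all genes by 0.111. Among the 4331, no gene that an alternative still tested changed sign under it.

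The untreated gap was called in 9875 to 10899 genes and the treated gap in 9141 to 11215 when 1 sample was left out, and in 7364 and 7809 with the block. The share of called genes with over 50% of the difference in the controls was 40.6 to 43.4% without 1 sample, the highest without ControlA replicate 3.

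The median of the interferon signalling list, 0.06, became −0.018 without ControlB replicate 2 and −0.0031 without ControlB replicate 3, within a range up to 0.13 when 1 sample was left out. The median of the chemokines, 0.48, became −0.71 with at least 10 counts in every sample, which leaves fewer genes, and ranged from −0.025 (without ControlB replicate 1) to 0.58 when 1 sample was left out. Of 106 genes described by name, 84 stayed called under every alternative counted here and 22 lost the call under some. Of 2008 values, 1934 kept the call and its direction. The stricter test against a fold was not counted here, and genes with a small difference cannot pass it. An alternative whose filter dropped a gene was not counted for that gene.

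With 2 samples given nApoE3, the nApoE3 response is the least replicated part of each difference. Fragment and experiment cannot be told apart in the treated gap, and experiment and control group cannot be told apart in the untreated gap. The difference of response therefore rests on each experiment's own controls. Depth differed between the experiments, and genes with few counts in a group have no usable fold.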
